A study of Mus musculus with 23 samples.

Results

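The 9 genes described here encode inhibitors and activators of the cyclin-dependent kinases (CDKs) that govern the G1 phase of the cell cycle. They are the INK4 genes *Cdkn2a*, *Cdkn2b* and *Cdkn2c*, the CIP/KIP gene *Cdkn1b*, the D-type cyclins *Ccnd1*, *Ccnd2* and *Ccnd3*, and the E-type cyclins *Ccne1* and *Ccne2*. They were matched by gene symbol in a table of raw RNAseq counts, and all 9 were found among its 27179 genes. RNA came from the livers of 15 female mice, taken from tissue free of visible tumors. All mice, the controls included, carried Alb-Cre, a recombinase transgene driven by the albumin promoter and therefore active in hepatocytes, together with floxed alleles of *Trp53* on both chromosomes (TRP53 flx/flx). The 6 Ctrl mice had BRAF wt and ICMT flx/+. The 6 ABpIF/+ mice added BrafCA/+, an allele that Cre switches to an oncogenic form of the BRAF kinase, on ICMT flx/+. The 3 ABpIF/F mice carried BrafCA/+ and ICMT flx/flx, and *Icmt* encodes the enzyme that methylates the prenylated end of RAS and related proteins. The sample labels write the *Braf* genotype of both ABpIF groups as +/+, while the series' design text gives BrafCA/+. Ages were not given in the labels. The authors' paper reports that the ABpIF/F mice differed in age and all developed liver tumors, with a burden that went with age. Which age belongs to which sequenced mouse is not stated there, so effects of age and tumor burden were not tested.

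CDK4 and CDK6 with a D-type cyclin, and then CDK2 with an E-type cyclin, phosphorylate the retinoblastoma protein and its relatives, which releases E2F factors and lets a cell enter S phase. INK4 proteins block CDK4 and CDK6, and CIP/KIP proteins such as p27 (*Cdkn1b*) mainly block CDK2 complexes. *Cdkn2a* encodes the INK4 protein p16INK4a and, in another reading frame with its own first exon, p19ARF, which stabilizes p53. The cyclin *Ccnd1* is the D-type cyclin best known for its increase in regenerating hepatocytes, and *Cdkn2a* and *Cdkn2b* are known as genes that oncogenic RAS and RAF signaling can switch on in senescent cells.

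The total count per mouse lay between 24742910 and 32262649. *Icmt* had between 27.8 and 34.7 CPM (counts scaled to a common library size, by edgeR's TMM method throughout) in Ctrl, between 27.8 and 37.4 in ABpIF/+ and between 15.2 and 16.6 in ABpIF/F mice, and the ABpIF/F range overlapped neither other group. Hepatocyte markers were abundant in every mouse, summing over 8 genes to between 114500 and 154100 CPM in Ctrl, 209000 and 290600 CPM in ABpIF/+ and 167400 and 260000 CPM in ABpIF/F mice. The sum mostly follows *Alb*, with means of 89160, 153800 and 144100 CPM in these groups. *Apoa1* and *Trf* were called up against Ctrl in both ABpIF groups. Other markers were lower, *Ttr* with means of 4216, 2399 and 3419 CPM and *Cps1* with 4225, 2768 and 2063 CPM, neither called by edgeR. Of the 6 Ctrl mice, 5 carried a different strain label from the sixth, BG3, and from all ABpIF mice, so that strain label and genotype cannot be told apart except through BG3. A score of circadian clock genes (mean of standardized log2 CPM, one arm of the clock minus the other) lay between 1.53 and 3.52 in ABpIF/F mice, at 2.61 in the Ctrl mouse malpa387, and between -1.42 and -0.44 in the remaining 11 mice. In bulk tissue, fewer cells of a type and less RNA per cell cannot be told apart.

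The members called higher than in Ctrl, *Cdkn2b* in both ABpIF groups and *Cdkn2a* in ABpIF/F alone, lie side by side on chromosome 4. *Cdkn2a* (Entrez 12578) spans chr4:89274471-89294653 and *Cdkn2b* (Entrez 12579) chr4:89306299-89311039, both on the minus strand of GRCm38 (GENCODE M21). Their promoter sequences are shown because these are the called genes with an entry in the promoter table used, which had none for *Ccnd1* and *Ccnd2*. *Cdkn2a* has separate starts for p19ARF and p16INK4a that gene counts cannot separate, so which of its transcripts rose is not known. Each sequence comes from the RefSeq promoter table (GRCm38.p6), reads 5′ to 3′ on the gene's strand and ends before the first annotated exon, and capitals mark the motifs found. The windows are chr4:89294654-89294869 for p19ARF, chr4:89282193-89282442 for p16INK4a and chr4:89311040-89311282 for *Cdkn2b*.
Cdkn2a, p19ARF start: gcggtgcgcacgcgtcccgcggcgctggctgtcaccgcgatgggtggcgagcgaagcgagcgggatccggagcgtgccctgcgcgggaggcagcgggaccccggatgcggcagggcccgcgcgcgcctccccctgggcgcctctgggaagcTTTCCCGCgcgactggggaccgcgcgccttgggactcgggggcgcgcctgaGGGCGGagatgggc
Cdkn2a, p16INK4a start: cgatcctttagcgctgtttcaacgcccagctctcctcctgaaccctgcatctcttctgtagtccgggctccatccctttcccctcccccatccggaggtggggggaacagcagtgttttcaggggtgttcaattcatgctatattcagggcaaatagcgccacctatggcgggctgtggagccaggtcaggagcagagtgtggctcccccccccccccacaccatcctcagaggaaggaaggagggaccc
Cdkn2b: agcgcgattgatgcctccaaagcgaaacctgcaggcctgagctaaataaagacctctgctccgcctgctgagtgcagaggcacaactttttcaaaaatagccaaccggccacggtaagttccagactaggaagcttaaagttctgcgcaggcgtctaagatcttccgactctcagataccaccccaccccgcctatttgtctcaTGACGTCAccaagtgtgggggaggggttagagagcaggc

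The 250 bases before each RefSeq start were searched on both strands for the E2F motifs TTTCGCGC, TTTGGCGC and TTTCCCGC, the AP-1 motif TGANTCA, the CRE motif TGACGTCA and the SP1 motif GGGCGG, none of which contains another. The p19ARF window held TTTCCCGC from 99 to 92 bases before its start, a motif found in 0.895% of the 32851 promoters of the table. It also held GGGCGG at 2 places, a motif found in 32.7% of all promoters, and the one nearer the start falls in the stretch not shown. The *Cdkn2b* window held TGACGTCA from 46 to 39 bases before its start, a motif present in 1.55% of promoters. The p16INK4a window held none of the letters searched, which says nothing about the factors. GC content was 78.4% before p19ARF, 60.0% before p16INK4a and 53.6% before *Cdkn2b*, beside a median of 52.4% over all promoters. The table held promoters for 6 of the 9 genes. In those of *Cdkn2c*, *Cdkn1b*, *Ccne1* and *Ccnd3* the matches were GGGCGG alone, and 1 of the 2 *Cdkn2c* starts had none.

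**Figure D1:**
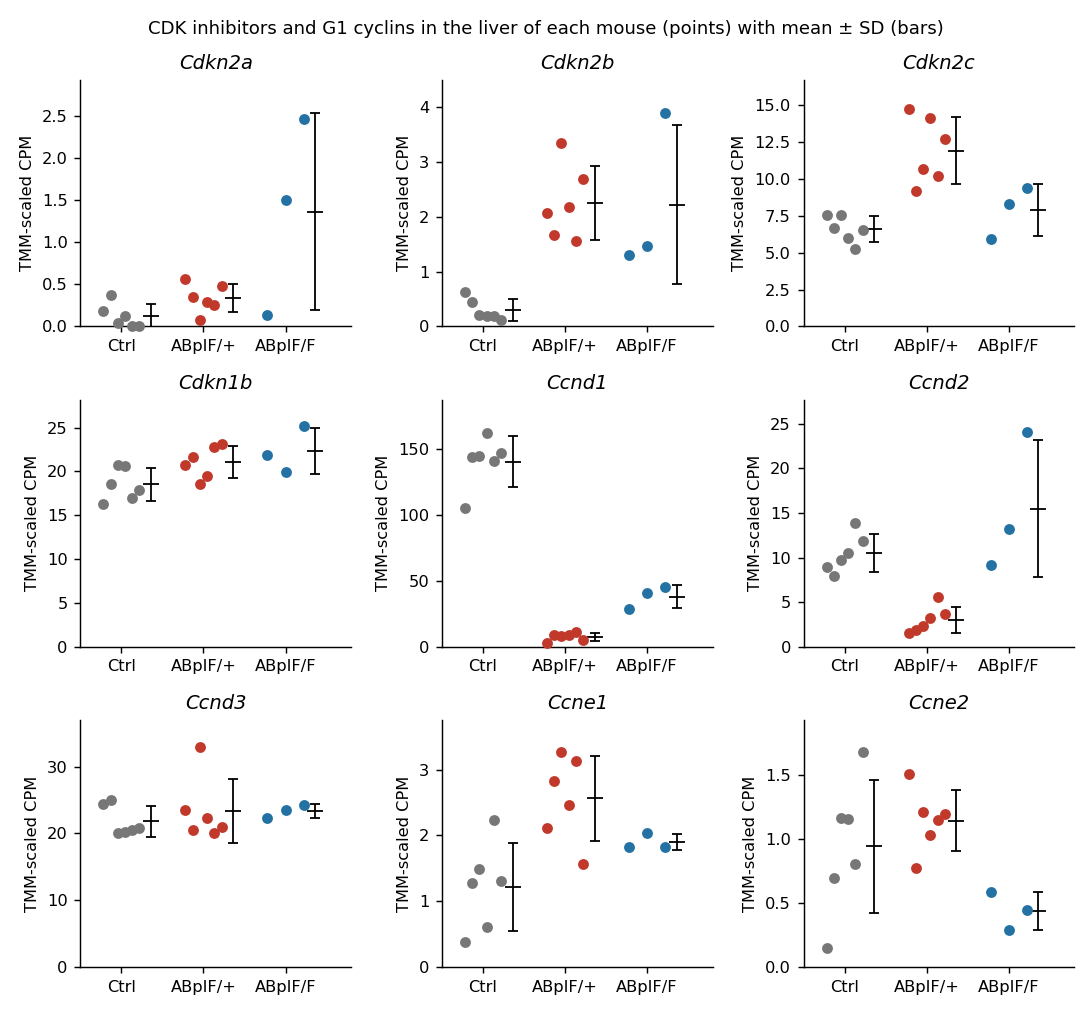
Level of each gene in the liver of each mouse, in TMM-scaled CPM (vertical axes, linear and from 0), for 6 Ctrl, 6 ABpIF/+ and 3 ABpIF/F mice (horizontal axes). Points are mice and bars are mean ± SD, cut at 0; *Ccnd1* was at 105 CPM or more in every Ctrl mouse and at 10.9 or less in every ABpIF/+ mouse, with the ABpIF/F mice between 28.2 and 44.9.

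Levels can be compared between genes only per length, and CPM were therefore divided by the length of each gene's exons in kb. The exons of all annotated transcripts were merged, which gave 4709 bases for *Ccnd1*, 9409 for *Ccnd2* and 8775 for *Ccnd3*. Since the annotation used in counting is not given, the order of genes and the shares per kb depend on this choice of length. In Ctrl livers *Ccnd1* led with 29.8 ± 4.03 CPM per kb (SD, n = 6), followed by *Cdkn1b* with 4.07 ± 0.408, *Ccnd3* with 2.49 ± 0.262 and *Cdkn2c* with 2.45 ± 0.328. *Ccnd2* stood at 1.11 ± 0.226 CPM per kb, and *Ccne1*, *Ccne2*, *Cdkn2b* and *Cdkn2a* were all under 1, at 0.456, 0.270, 0.214 and 0.102. Neighbours in this order differed by less than the larger of their SDs for *Ccnd3* and *Cdkn2c* and from *Ccne1* down to *Cdkn2a*.

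In ABpIF/+ livers the order had changed, with *Cdkn1b* at 4.62 ± 0.403 and *Cdkn2c* at 4.43 ± 0.837 CPM per kb (SD, n = 6) on top and within their spread of each other. *Ccnd3* followed at 2.66 ± 0.551, and then *Cdkn2b* at 1.62 ± 0.482, *Ccnd1* at 1.60 ± 0.654 and *Ccne1* at 0.963 ± 0.243, which followed one another in steps smaller than the larger SD. *Ccne2*, *Ccnd2* and *Cdkn2a* came last, at 0.328, 0.319 and 0.288 CPM per kb. In ABpIF/F livers *Ccnd1* again led with 8.04 ± 1.84 CPM per kb (SD, n = 3), ahead of *Cdkn1b* with 4.90 ± 0.576, while *Cdkn2c* and *Ccnd3* were within their spread at 2.93 and 2.66. *Ccnd2*, *Cdkn2b*, *Cdkn2a* and *Ccne1* followed in steps smaller than their spread, from 1.65 to 0.713 CPM per kb, and *Ccne2* was lowest at 0.126 ± 0.0432.

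The first comparison, ABpIF/+ vs Ctrl, is between mice with and without the oncogenic *Braf* allele where *Icmt* was floxed on 1 chromosome. The authors' paper reports that ABpIF/+ mice lost weight and became ill, unlike Ctrl and ABpIF/F mice. Effects of the allele and of this illness cannot be told apart here. *Ccnd1* and *Ccnd2* fell and *Cdkn2b* rose, and 3 of the 9 genes were thus called, at an adjusted p under 0.01 and a change of at least 2-fold. Over the whole set of 27179 genes 4.69% were called up and 5.35% down, and among 12316 genes whose mean over the mice reached 1 CPM, which include 7 of the 9, 17.6% were called. Without regard to the size of the change, 4 of the 9 had an adjusted p under 0.01, against 18.4% of all genes. The ranges of the groups did not overlap for *Cdkn2b*, *Cdkn2c*, *Ccnd1* and *Ccnd2*, all of which are among those 7, beside 31.3% of the 12316 genes. *Cdkn2b* reached the mean of 1 CPM through the ABpIF groups only.

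*Ccnd1* (Entrez 12443, chr7:144929931-144939925) had a lowest, median and highest level of 105, 144 and 162 CPM in Ctrl mice and of 2.45, 8.67 and 10.9 CPM in ABpIF/+ mice. Every ABpIF/+ mouse was far below every Ctrl mouse. The mean was 140.2 ± 19.0 CPM in Ctrl and 7.52 ± 3.08 CPM in ABpIF/+ livers (SD, n = 6 each), an 18.6-fold decrease (log2 fold change -4.22, SE 0.29, adjusted p = 1.91e-08). *Ccnd1* shares exon positions with *LTO1* on the opposite strand, and since the strand setting of the counting is not given in the sources used here, reads of the pair may be mixed. *LTO1* itself had 11.3 CPM in Ctrl and 6.59 CPM in ABpIF/+ livers (log2 fold change -0.77, adjusted p = 0.000289, under the 2-fold threshold). The same holds for *Ccnd2* and the antisense RNA *9330179D12Rik* (at most 0.0110 CPM on average), *Ccnd3* and *Bysl* (8.48 to 12.3 CPM) and *Ccne2* and *Ints8* (12.3 to 15.4 CPM), none of which was called.

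*Ccnd2* (Entrez 12444, chr6:127125162-127152193) ranged from 7.92 to 13.8 CPM in Ctrl mice, with a median of 10.1, and from 1.51 to 5.53 CPM in ABpIF/+ mice, with a median of 2.73. It fell 3.47-fold (log2 fold change -1.80, SE 0.29, adjusted p = 0.000141). The markers of stellate cells and fibroblasts were lower in the same livers, with a sum over 6 genes between 132 and 194 CPM in Ctrl and between 38.5 and 81.4 CPM in ABpIF/+ mice, and 5 of the 6 were called down. Macrophage markers, with 3 of 6 called down, summed to between 298 and 417 CPM in Ctrl and between 107 and 204 CPM in ABpIF/+ mice. Called down were also 4 of 8 T and B lymphocyte markers and 2 of 6 endothelial markers. Called up were 2 of 8 hepatocyte and 1 of 4 erythroid markers, and 1 of 6 cholangiocyte markers was called each way. The part of these cell types in the *Ccnd1* and *Ccnd2* results against Ctrl was not tested.

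*Ccnd3*, the D-type cyclin that is also prominent in lymphoid cells, stayed at 20.0 to 25.1 CPM in Ctrl and 20.0 to 32.9 CPM in ABpIF/+ mice. Its log2 fold change was 0.10, with a 95% interval from -0.15 to 0.35, which leaves out a change of 2-fold in either direction. Of the E-type cyclins, *Ccne1* had a median of 1.29 CPM in Ctrl and 2.65 CPM in ABpIF/+ mice, and the ranges, from 0.372 to 2.24 and from 1.57 to 3.27, overlapped. The estimate of 2.10-fold did not pass the threshold (adjusted p = 0.0145), and it passed with DESeq2 (adjusted p = 0.00342) and without the Ctrl mouse malpa459 (log2 fold change 1.34, adjusted p = 0.00308), with a range from 0.00308 to 0.268 over all alternatives. *Ccne2* was between 0.149 and 1.68 CPM in Ctrl and between 0.774 and 1.51 CPM in ABpIF/+ mice (log2 fold change 0.28, 95% interval from -0.50 to 1.06).

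Of the inhibitors, *Cdkn2b*, which encodes p15INK4b, had 3 to 17 counts in each Ctrl mouse and 43 to 83 counts in each ABpIF/+ mouse. This was 0.112 to 0.633 CPM against 1.57 to 3.35 CPM, with no overlap. The mean rose 7.57-fold, from 0.298 ± 0.201 to 2.25 ± 0.670 CPM (SD, n = 6 each; log2 fold change 2.92, SE 0.40, adjusted p = 5.70e-06). *Cdkn2c*, which encodes p18INK4c, lay between 5.26 and 7.52 CPM in Ctrl and between 9.17 and 14.7 CPM in ABpIF/+ mice. Its groups did not overlap either, but the 1.81-fold difference was under the 2-fold threshold (adjusted p = 0.000150). *Cdkn1b* had medians of 18.2 and 21.2 CPM and a log2 fold change of 0.18, with a 95% interval from -0.03 to 0.40. *Cdkn2a* had at most 9 counts in any Ctrl mouse and at most 15 in any ABpIF/+ mouse, and its difference did not pass the test (log2 fold change 1.52, SE 0.76, adjusted p = 0.176).

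With BG3, the Ctrl mouse that shares the strain label of the ABpIF mice, as the only control, 1 of these 3 calls was left. *Ccnd1* was still called, while *Cdkn2b* (log2 fold change 2.31, adjusted p = 0.0537) and *Ccnd2* (-1.39, adjusted p = 0.190) kept their direction, and *Cdkn2a*, not called in either fit, turned from 1.52 to -0.13. In BG3 itself the levels were 143 CPM for *Ccnd1*, 7.92 CPM for *Ccnd2* and 0.451 CPM for *Cdkn2b*, all outside the ABpIF/+ ranges, and 0.369 CPM for *Cdkn2a*, inside it. Over all alternatives the adjusted p ranged from 2.01e-62 to 0.00117 for *Ccnd1*, from 2.24e-09 to 0.190 for *Ccnd2* and from 3.54e-12 to 0.0537 for *Cdkn2b*.

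**Figure D2:**
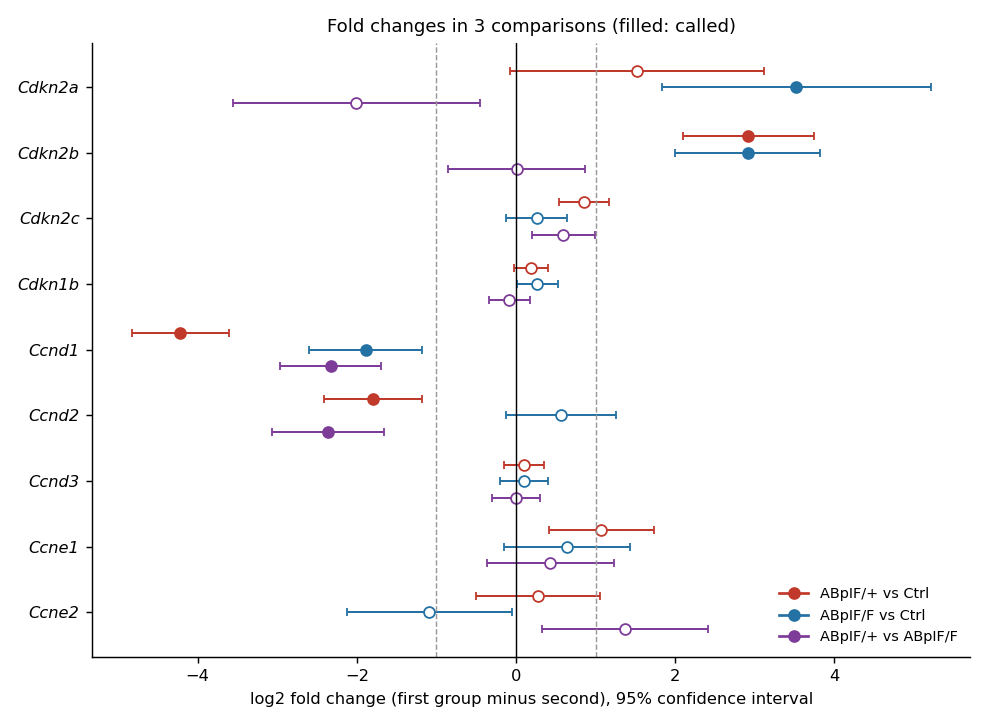
Log2 fold change of each gene (horizontal axis, first group minus second, edgeR) with its 95% confidence interval, in the 3 comparisons. Filled points were called at an adjusted p under 0.01 and at least 2-fold (dashed lines); *Cdkn2b* sits at 2.92 and 2.91 against Ctrl and at 0.01 between the ABpIF groups, whereas *Ccnd1* differs in all 3 comparisons.

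In ABpIF/F vs Ctrl, where both alleles of *Icmt* were floxed in the *Braf* mutant mice, *Ccnd1* fell and *Cdkn2a* and *Cdkn2b* rose. Again 3 of the 9 genes were called, beside 4.55% of all genes called up, 2.38% called down and 12.6% called among those with at least 1 CPM. At any size of change 3 of the 9 had an adjusted p under 0.01, against 10.9% of all genes. The groups did not overlap for *Cdkn2b* and *Ccnd1*, which are 2 of the 7 genes with at least 1 CPM, beside 31.6% of such genes. This comparison and the one before share the Ctrl mice.

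*Ccnd1* was at 28.2 CPM in mouse BG183, 40.4 CPM in BG90 and 44.9 CPM in BG38, below every Ctrl mouse. The mean of 37.9 ± 8.66 CPM (SD, n = 3) was 3.70-fold lower than in Ctrl (log2 fold change -1.89, SE 0.33, adjusted p = 0.000769). *Ccnd2*, at 9.20, 13.2 and 24.0 CPM in the same 3 mice, overlapped the Ctrl range and was not called (log2 fold change 0.57, 95% interval from -0.13 to 1.26). *Ccnd3*, at 22.2 to 24.2 CPM, had a log2 fold change of 0.10 with a 95% interval from -0.21 to 0.40.

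*Cdkn2b* was at 1.31 CPM in BG183, 1.47 CPM in BG90 and 3.91 CPM in BG38, from 40, 41 and 141 counts, and each mouse was above the highest Ctrl mouse. It rose 7.52-fold (log2 fold change 2.91, SE 0.44, adjusted p = 4.61e-05). Without BG38 the log2 fold change was 2.22 and the call stayed (adjusted p = 0.00180). *Cdkn2a* was at 0.131 CPM in BG183, 1.5 CPM in BG90 and 2.47 CPM in BG38, from 4, 42 and 89 counts, whereas the Ctrl mice had 0, 0, 1, 4, 5 and 9 counts. BG183 thus lay inside the Ctrl range, and BG90 and BG38 above every other mouse of the study. The estimated rise was 11.5-fold (log2 fold change 3.52, SE 0.81, adjusted p = 0.00368).

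The markers of cholangiocytes, the cells that line bile ducts, stood in the same order in these 3 mice, with a sum over 6 genes of 205 CPM in BG183, 778 CPM in BG90 and 1150.0 CPM in BG38, against 35.8 to 68.4 CPM in Ctrl and 29.9 to 145 CPM in ABpIF/+ mice. Of these 6 genes 4 were called up in ABpIF/F vs Ctrl. The sum mostly follows *Spp1*, which had a mean of 660 CPM in ABpIF/F mice, where the sum averaged 711 CPM and *Krt19* 3.03 CPM. In ABpIF/+ vs Ctrl the list split, with *Sox9* called up and *Krt19* called down. The neutrophil markers summed to 2.15, 20.2 and 66.3 CPM in BG183, BG90 and BG38 and to between 0.671 and 2.01 CPM in Ctrl mice, in which *Ly6g* was at 0, and 3 of the 4 were called up. The macrophage markers, at 257 CPM in BG183, 467 CPM in BG90 and 569.6 CPM in BG38, and the T and B lymphocyte markers, at 14.8, 22.7 and 46.3 CPM, stood in this order too. So did the erythroid markers, at 47.6, 61.0 and 84.6 CPM. Hepatocyte markers, at 260000, 259700 and 167400 CPM, and endothelial markers, at 218, 167 and 162 CPM, stood in the reverse order. Stellate cell and fibroblast markers, at 145, 121 and 192 CPM, followed neither. By edgeR 1 of the 8 lymphocyte markers was called up, and 0 of the 6 macrophage markers were called up by edgeR or DESeq2 or had an unadjusted p under 0.05. The order BG183, BG90, BG38 was not particular to *Cdkn2a* either, since *Cdkn2b*, *Cdkn2c*, *Ccnd1*, *Ccnd2* and *Ccnd3* rose in it too. The part of these cells in the *Cdkn2a*, *Cdkn2b* and *Ccnd1* results was not tested, nor was that of age or tumor burden, in which these mice also differed.

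The remaining inhibitors and the E-type cyclins were not called in ABpIF/F vs Ctrl. *Cdkn2c* had a mean of 7.87 ± 1.76 CPM (SD, n = 3), with a log2 fold change of 0.26 and a 95% interval from -0.12 to 0.64, and *Cdkn1b* had a mean of 22.3 ± 2.62 CPM and a log2 fold change of 0.27 (adjusted p = 0.163). *Ccne1* was at 1.83, 2.04 and 1.83 CPM, inside the Ctrl range (log2 fold change 0.64, adjusted p = 0.321). *Ccne2* was at 0.587, 0.286 and 0.443 CPM, from 8 to 18 counts, and its log2 fold change of -1.09 had an adjusted p of 0.161.

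None of these 3 calls was left with the clock score as a covariate or with BG3 as the only control, although no direction of a called gene turned. With the clock score the log2 fold change was -1.52 for *Ccnd1* (adjusted p = 0.0523), 2.09 for *Cdkn2b* (adjusted p = 0.0432) and 2.34 for *Cdkn2a* (adjusted p = 0.425), and with BG3 alone it was -1.96 (adjusted p = 0.0874), 2.24 (adjusted p = 0.0744) and 1.82 (adjusted p = 0.523). The Ctrl mouse malpa387, whose clock score lay inside the ABpIF/F range, had 105 CPM of *Ccnd1*, 0.633 CPM of *Cdkn2b* and 0.186 CPM of *Cdkn2a*. The other Ctrl mice scored below that range, so clock score and genotype cannot be told apart except through malpa387. The *Cdkn2a* call was also lost without BG38 (log2 fold change 2.77, adjusted p = 0.0531), without BG90 (3.45, adjusted p = 0.0137), without the Ctrl mouse malpa454 (3.34, adjusted p = 0.0106) and when only the groups compared were fitted (adjusted p = 0.0199). Without BG183 it was 4.06 and the call stayed (adjusted p = 0.000279), and without BG3 it was 4.22. Over all alternatives the adjusted p of *Cdkn2a* ranged from 0.000279 to 0.523, that of *Ccnd1* from 6.75e-09 to 0.0874 and that of *Cdkn2b* from 8.48e-09 to 0.0744.

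The comparison of ABpIF/+ with ABpIF/F is between mice that all carry the *Braf* allele and differ in the second *Icmt* allele. These mice differed in health as well, as given above, and effects of allele and health cannot be told apart. *Ccnd1* and *Ccnd2* were lower in ABpIF/+ mice, and these 2 of the 9 genes were called, with none called up by edgeR or DESeq2 and 2 higher at an unadjusted p under 0.05. Over all genes 1.76% were called up and 5.49% down, and 12.2% were called among those with at least 1 CPM. At any size of change 2 of the 9 had an adjusted p under 0.01, against 10.9% of all genes. The groups did not overlap for *Ccnd1* and *Ccnd2*, 2 of the 7 genes with at least 1 CPM, beside 34.2% of such genes, nor for *Ccne2*, whose mean was lower than 1 CPM.

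*Ccnd1* was 5.03-fold lower in ABpIF/+ than in ABpIF/F livers (log2 fold change -2.33, SE 0.30, adjusted p = 7.46e-05), with the highest ABpIF/+ mouse at 10.9 CPM and the lowest ABpIF/F mouse at 28.2 CPM. *Ccnd2* was 5.14-fold lower (log2 fold change -2.36, SE 0.33, adjusted p = 0.000103), with the nearest mice at 5.53 and 9.20 CPM. With the clock score as a covariate *Ccnd1* stayed called and *Ccnd2* was at -2.65 with an adjusted p of 0.0162, the highest over its alternatives, of which the lowest was 3.62e-10. The clock scores of ABpIF/+ and ABpIF/F mice did not overlap, so this fit cannot separate the clock from the genotype. The stellate cell and fibroblast markers, 5 of 6 called down here as well, summed to between 121 and 192 CPM in ABpIF/F mice, all above the ABpIF/+ mice. Of the other markers 5 of 6 for cholangiocytes, 4 of 6 for macrophages, 4 of 8 for T and B lymphocytes, 3 of 4 for neutrophils and 1 of 6 for endothelial cells were also called down. The part of these cells in the *Ccnd1* and *Ccnd2* results was not tested.

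*Cdkn2b* had means of 2.25 CPM in ABpIF/+ and 2.23 CPM in ABpIF/F livers, and the log2 difference of 0.01 had a 95% interval from -0.85 to 0.87. It ranged from -0.26 to 0.70 with each mouse left out in turn, the latter without BG38, and was called in none of these fits. For *Cdkn2a* the log2 difference was -2.01 (SE 0.75, adjusted p = 0.0703), with BG183 inside the ABpIF/+ range and the other ABpIF/F mice above it. *Cdkn2c* was 1.51-fold higher in ABpIF/+ mice (adjusted p = 0.0296) and *Ccne2* 2.59-fold higher (adjusted p = 0.0625), neither of them called. The log2 difference was -0.09 for *Cdkn1b*, 0.00 for *Ccnd3* and 0.43 for *Ccne1*, with 95% intervals from -0.34 to 0.17, from -0.30 to 0.30 and from -0.37 to 1.23.

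**Figure D3:**
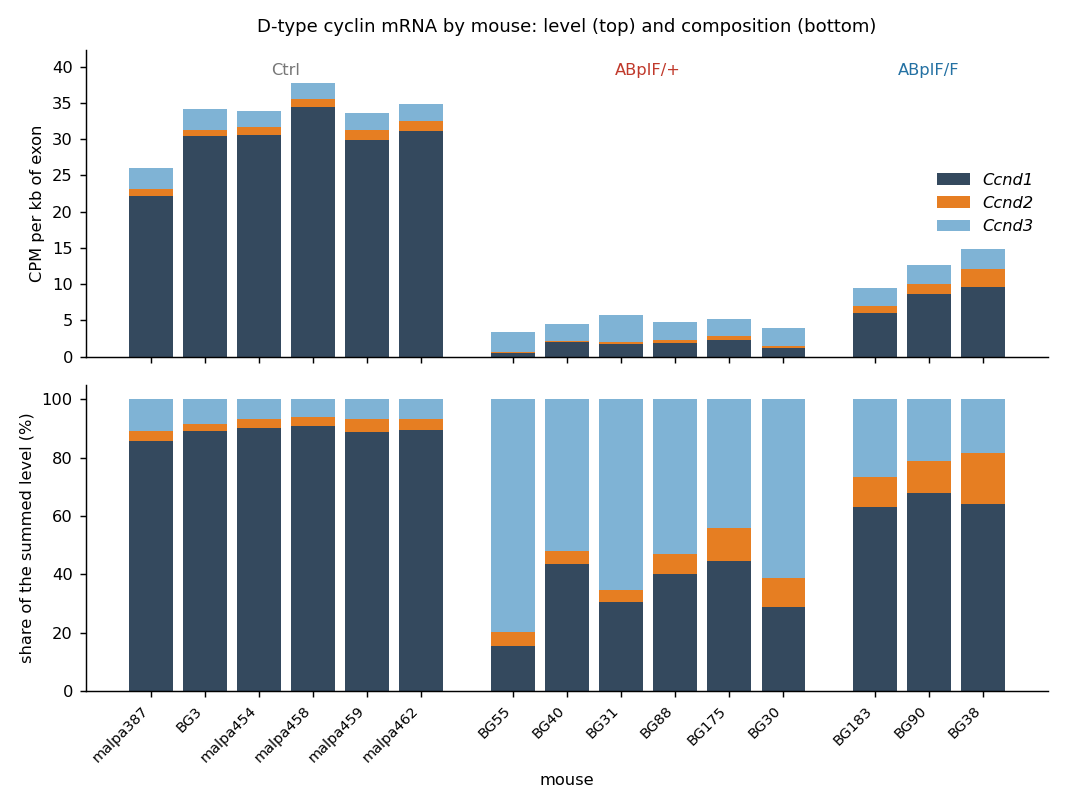
D-type cyclin mRNA in each mouse (horizontal axis), as CPM per kb of exon (top, stacked) and as a share of the sum of *Ccnd1*, *Ccnd2* and *Ccnd3* in percent (bottom). *Ccnd1* made up 85.6% or more in every Ctrl mouse, 63.0% to 67.8% in ABpIF/F mice and at most 44.6% in ABpIF/+ mice, in which *Ccnd3* made up 44.0% to 79.8%.

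The D-type cyclins were then viewed as a family, since each can serve the same kinases. Their summed level was 33.4 ± 3.93 CPM per kb in Ctrl (SD, n = 6), 4.58 ± 0.861 in ABpIF/+ (n = 6) and 12.3 ± 2.69 in ABpIF/F livers (n = 3), which is 7.29-fold and 2.70-fold lower than in Ctrl. The share of *Ccnd1* in the sum was 89.0% ± 1.87 in Ctrl, 33.9% ± 11.1 in ABpIF/+ and 65.0% ± 2.48 in ABpIF/F livers. *Ccnd3*, whose own log2 fold change was 0.10 against Ctrl in both groups, made up 7.61% ± 1.71, 59.2% ± 12.5 and 22.1% ± 4.13, so that it was the largest share in ABpIF/+ livers on average. The highest *Ccnd3* share, 79.8%, was in mouse BG55, which had the lowest *Ccnd1* level. *Ccnd2* made up 3.36% ± 0.671 in Ctrl, 6.94% ± 3.05 in ABpIF/+ and 12.9% ± 3.78 in ABpIF/F livers. These shares are a description of levels tested above, gene by gene, and carry no test of their own.

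The 3 INK4 genes summed to 2.77 ± 0.487 CPM per kb in Ctrl (SD, n = 6), 6.34 ± 1.08 in ABpIF/+ (n = 6) and 5.70 ± 2.59 in ABpIF/F livers (n = 3). *Cdkn2c* held the largest mean share in each group, at 89.3%, 69.9% and 55.4%. The share of *Cdkn2b* was 7.34% in Ctrl, 25.6% in ABpIF/+ and 27.2% in ABpIF/F livers, and that of *Cdkn2a* was 3.37%, 4.53% and 17.4%, with a range from 3.42% to 25.0% over the ABpIF/F mice. The E-type cyclins summed to 0.725 ± 0.326, 1.29 ± 0.230 and 0.838 ± 0.0218 CPM per kb, of which *Ccne1* made up 63.3%, 73.8% and 85.0%.

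Some of the genes varied together from mouse to mouse. Over the 15 mice the Pearson correlation of log2 CPM was 0.81 for *Ccnd1* with *Ccnd2*, -0.87 for *Ccnd1* with *Cdkn2c* and -0.82 for *Ccnd1* with *Cdkn2b*. After each group was centred on its own mean these were 0.57, -0.35 and -0.11, the negative ones being much smaller in size. *Cdkn2a* and *Cdkn2b*, neighbours on the chromosome, had 0.70 over all mice and 0.55 after centring. Pairs that are not neighbours reached similar values. *Cdkn2a* with *Cdkn2c* had 0.48 and 0.60, *Cdkn2b* with *Cdkn2c* 0.76 and 0.47, and *Cdkn2b* with *Ccnd3* 0.46 and 0.65. All such values share libraries, depth and groups, and are given without a test.

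The genes most like each member over the 15 mice, among those with at least 1 CPM, were found by the same correlation. For *Ccnd2* they were *Fstl1* (0.98), *Rgs5* (0.98) and *Sparc* (0.97), genes known for expression in mesenchymal or perivascular cells, and these stayed at 0.86 to 0.90 after centring. *Ccnd1* was most like *AW112010*, *Slc22a30* and *Pon3* (0.97 each), but at 0.29 to 0.35 after centring. *Cdkn2b* was most like *Chmp2b*, *H2-Q4* and *1700017B05Rik* (each 0.98), and *Cdkn2c* most like *Kmt5a*, *Lmo4* and *Gm12174* (0.95 to 0.96). After centring, *Cdkn2b* had 0.855 to 0.893 with its genes and *Cdkn2c* 0.791 to 0.850. For *Cdkn1b* the genes were *Fzd5*, *Trp53bp2* and *Amotl2* (0.84 to 0.89), for *Ccnd3* *Rmnd5b*, *Ap1g2* and *Snapc2* (0.77 to 0.82) and for *Ccne1* *Pon2* and *Lrp12* (0.87 each). The centred values were 0.768 to 0.816 for *Cdkn1b*, 0.759 to 0.815 for *Ccnd3* and 0.75 each for *Ccne1*. High values after centring were thus not particular to *Ccnd2*. All these genes were picked for the highest correlation, so high values follow in part from the choice.

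**Figure D4:**
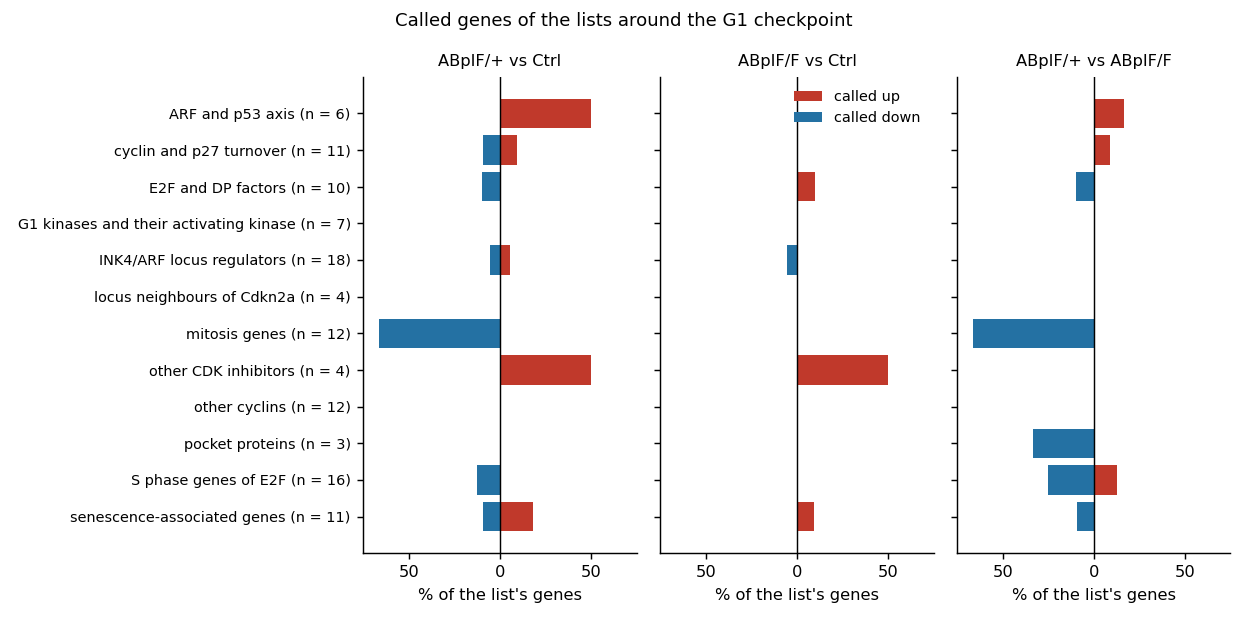
Share of each gene list around the G1 checkpoint that was called up (red, to the right) or down (blue, to the left) in the 3 comparisons, in percent of the list's genes in the table (n beside each name). The mitosis list has 8 of 12 genes called down in ABpIF/+ against Ctrl and against ABpIF/F, and none called in ABpIF/F vs Ctrl.

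Among the other CDK inhibitors, 2 of 4 were called up against Ctrl in both ABpIF groups and none between the ABpIF groups by edgeR or DESeq2, with 1 at an unadjusted p under 0.05. *Cdkn1a*, which encodes the p53 target p21, had a mean of 1.09 CPM in Ctrl, 17.7 CPM in ABpIF/+ and 9.07 CPM in ABpIF/F livers, a log2 fold change of 4.02 (SE 0.61, adjusted p = 0.000221) and of 3.06 (SE 0.66, adjusted p = 0.00529) against Ctrl. *Cdkn1c*, which encodes the CIP/KIP inhibitor p57, went from 3.48 CPM to 13.3 and 7.87 CPM, a log2 fold change of 1.94 (adjusted p = 2.71e-08) and of 1.18 (adjusted p = 0.000265). The INK4 gene *Cdkn2d* (p19INK4d) had means of 2.65, 2.65 and 3.16 CPM and was not called. The median log2 fold change of the list was 1.35 and 1.05 against Ctrl, beside 0.02 and 0.00 over the 12316 genes with at least 1 CPM.

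The kinases these proteins act on, a list of 7 with their activating kinase and phosphatase, were not called in any comparison by edgeR or DESeq2, and at an unadjusted p under 0.05 there were 1, 1 and 0 of them in the 3 comparisons. *Cdk4* had means of 25.4, 28.8 and 30.6 CPM in Ctrl, ABpIF/+ and ABpIF/F livers, *Cdk6* 3.47, 3.38 and 5.23 CPM, and *Cdk2* 11.4, 11.7 and 12.5 CPM. Of the pocket proteins, *Rb1* had 7.83, 6.82 and 7.10 CPM and *Rbl2* 40.9, 43.4 and 31.1 CPM, neither called. *Rbl1*, which encodes p107, had 3.21, 2.31 and 5.29 CPM and was lower in ABpIF/+ than in ABpIF/F mice (log2 fold change -1.19, SE 0.24, adjusted p = 0.00110).

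Of 10 E2F and DP factors, *E2f8*, an atypical repressor E2F, fell in ABpIF/+ mice, from 5.72 CPM in Ctrl to 0.637 CPM (log2 fold change -3.16, SE 0.32, adjusted p = 8.84e-08), and it was lower than in ABpIF/F mice as well, in which it had 3.43 CPM. *E2f2* rose in ABpIF/F mice from 0.962 to 3.00 CPM (log2 fold change 1.64, adjusted p = 0.00235). *E2f1* had 2.78 CPM in Ctrl and 1.56 CPM in ABpIF/+ livers, a log2 fold change of -0.83 that was under the 2-fold threshold (adjusted p = 0.00606).

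Genes that E2F factors switch on for S phase were called down in 2 of 16 cases in ABpIF/+ vs Ctrl, namely *Mcm5* (log2 fold change -1.47, adjusted p = 5.67e-05), a subunit of the replicative helicase, and the S phase cyclin *Ccna2* (-1.26, adjusted p = 0.00283). None of the 16 was called in ABpIF/F vs Ctrl by edgeR or DESeq2, though 10 had an unadjusted p under 0.05, 6 of them higher. Between the ABpIF groups 4 were lower in ABpIF/+ mice, among them *Mcm5* (-2.03), *Ccna2* (-1.52) and *Mcm2* (-1.28), and 2 were higher, among them *Rrm2* (1.16), a subunit of ribonucleotide reductase, which makes precursors of DNA. The median over the list was -0.59, 0.21 and -0.67 in the 3 comparisons.

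The list of mitosis genes moved further, with 8 of 12 called down in ABpIF/+ vs Ctrl, 0 of 12 called in ABpIF/F vs Ctrl and 8 of 12 called down in ABpIF/+ vs ABpIF/F. In ABpIF/F vs Ctrl 0 were called by DESeq2 and 0 had an unadjusted p under 0.05 either. The median log2 fold change of the list was -1.84, 0.16 and -2.13, beside 0.02, 0.00 and 0.04 over genes with at least 1 CPM. *Top2a*, the topoisomerase of dividing cells, had means of 3.49 CPM in Ctrl, 0.211 CPM in ABpIF/+ and 4.18 CPM in ABpIF/F livers. Against Ctrl its log2 fold change in ABpIF/+ mice was -4.02 (SE 0.31, adjusted p = 2.16e-09). *Cdc20*, *Mki67* and *Ccnb2* fell in ABpIF/+ mice as well, by 3.26, 1.85 and 1.82 on the log2 scale. All 12 are genes of any dividing cell, and macrophage and lymphocyte markers were lower in the ABpIF/+ livers too, the latter summing to between 2.26 and 7.64 CPM against 12.7 to 18.5 CPM in Ctrl mice. Their part in the mitosis genes was not tested.

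In the list on turnover of cyclins and p27, *Fbxo31*, a ubiquitin ligase subunit known to target cyclin D1 protein, rose in ABpIF/+ mice from 51.5 to 183 CPM (log2 fold change 1.83, SE 0.16, adjusted p = 1.15e-08) and had 44.4 CPM in ABpIF/F mice. *Uhmk1*, a kinase of p27, fell from 8.86 to 2.34 CPM in ABpIF/+ mice (log2 fold change -1.92, adjusted p = 0.000176). These were the only genes of that list of 11 called in ABpIF/+ vs Ctrl, and none was called in ABpIF/F vs Ctrl by edgeR or DESeq2, with 3 at an unadjusted p under 0.05.

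Of 18 regulators of the INK4/ARF locus, *Tbx3*, a repressor of p19ARF, fell from 34.3 CPM in Ctrl to 12.0 CPM in ABpIF/+ (log2 fold change -1.52, adjusted p = 0.000660) and 9.61 CPM in ABpIF/F livers (-1.84, adjusted p = 0.00213). *Id1*, an inhibitor of factors that switch on p16INK4a, rose in ABpIF/+ mice from 8.37 to 70.5 CPM (log2 fold change 3.08, adjusted p = 0.000491). In ABpIF/F livers *Id1* had 28.3 CPM and was not called by edgeR (1.76, adjusted p = 0.0480), while DESeq2 called 1 of the 18 up there. The remaining 16, among them the Polycomb genes *Bmi1* and *Ezh2*, were not called against Ctrl in either group. The neighbours of *Cdkn2a* and *Cdkn2b* on chromosome 4 were not called in any comparison by edgeR or DESeq2, and 0 of 4 had an unadjusted p under 0.05. *Mtap* had means of 20.7, 21.2 and 23.6 CPM, *Dmrta1* had 0.300, 0.200 and 0.103 CPM, *Elavl2* had at most 0.0189 CPM and *Ifne* had no reads.

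In the ARF and p53 list, 3 of 6 genes were called up in ABpIF/+ vs Ctrl and none in ABpIF/F vs Ctrl by edgeR or DESeq2, with 1 at an unadjusted p under 0.05. *Npm1*, which binds p19ARF in the nucleolus, rose from 90.8 to 222 CPM (log2 fold change 1.29, adjusted p = 4.48e-07). *Trp53*, floxed in every group, went from 5.35 to 13.9 CPM (log2 fold change 1.37, adjusted p = 1.58e-07), and its counts cover the whole gene, so they do not show how much was deleted. In ABpIF/F mice it was at 10.7 CPM, with a log2 fold change of 0.99 (adjusted p = 0.000166), just under the 2-fold threshold. The p53 relative *Trp63* stayed low, at means of 0.0207 and 0.561 CPM (log2 fold change 4.37, adjusted p = 0.00361). *Braf* had means of 22.1, 26.1 and 21.4 CPM and was not called. Of 11 senescence-associated genes, *Cxcl1* rose in ABpIF/+ mice, from 2.60 to 21.1 CPM, and *Igfbp7* fell from 70.0 to 24.7 CPM. In ABpIF/F mice *Cxcl1* was the only one called by edgeR, at 71.4 CPM, while DESeq2 called 3 up and 6 were higher than in Ctrl at an unadjusted p under 0.05. None of 12 other cyclins was called in any comparison by edgeR or DESeq2, and 6, 3 and 2 had an unadjusted p under 0.05.

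**Figure D5:**
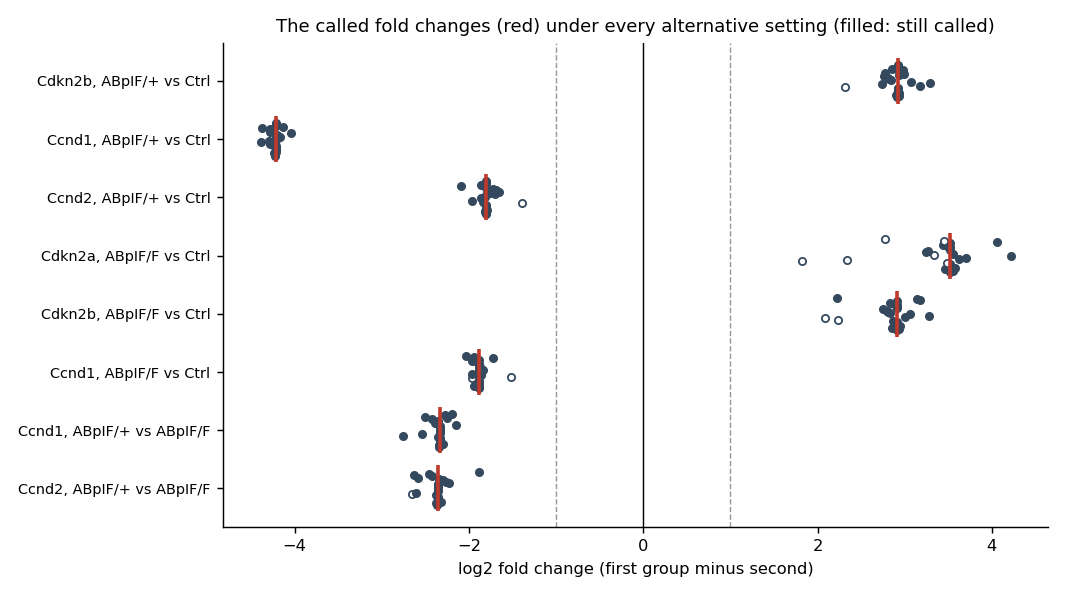
The 8 fold changes called among the 9 genes (red marks; log2, first group minus second) and the same values under each alternative setting and with each mouse left out (points; filled where still called). Every point lies on the same side of 0 as its red mark, and *Cdkn2a* in ABpIF/F vs Ctrl has the widest spread, from 1.82 to 4.22.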

How the data were processed

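Stranded mRNA libraries were prepared from frozen mouse liver and read from both ends. The authors aligned the reads to mm10 (GRCm38) with HISAT2 and counted them with featureCounts 2.0.8, and the annotation and strand setting of the counting are not given in the sources used here. The deposited values are raw counts per gene, 1 column per mouse, without normalization. The 23 listed samples name 15 mice, 8 of them by 2 samples, and such libraries could not be separated. The mouse name in each column header gave its group. A second deposited file repeated these counts in the 10 columns that could be matched, and 5 columns were not used. Columns of the authors' own comparisons (fold changes and p-values) were not used.

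The quasi-likelihood F-test of edgeR 4.0.16 (R 4.3.3) was run on all 27179 genes with TMM scaling. The 3 groups were in a single robust model of the edgeR 3 form. This model was tried on simulated data with the same dispersion for all genes. Changes were set there only in genes of higher mean count than *Cdkn2a*, so the trial does not cover a change in that gene. The p-values were adjusted by Benjamini-Hochberg over all genes, and calls required an adjusted p under 0.01 and at least a 2-fold change. Intervals are the model's 95% intervals. For correlations and scores, log2 CPM used a prior count of 2. Exon lengths and positions came from GENCODE M21. p-values measure the spread between mice.

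The 9 genes and all lists were chosen with earlier results of these data known. Named genes are the members, their direct partners, up to 4 called genes per list and comparison with at least 1 CPM in a group, the locus neighbours and the 3 genes most correlated with each member. Of the genes this rule selects, 2 are not reported here. *Bmi1*, *Ezh2*, *Trp63* and the genes overlapping members were named after their values were seen. *Hbb-bt* of the erythroid markers was not found in the table.

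Alternatives were RLE scaling, DESeq2 1.42.0, only the 14596 genes that pass filterByExpr, the edgeR 4 form of the test, non-robust dispersions, a threshold of 0.05 on the adjusted p, any fold change, separate fits of the groups compared, BG3 as the only control, the clock score as a covariate and each mouse left out. Scaling by library size alone was added after seeing the data.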

Additional observations from a re-analysis of the deposited data

Results flagged for a closer look

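Of 18 sets of 6 mice (9 genes in Ctrl and in ABpIF/+), 2 held a mouse that stood apart from the rest by Dixon's ratio, of which chance gives about 1 in 20, and groups of 3 were not tested. *Ccnd1* in the Ctrl mouse malpa387 was at 105 CPM, while the other Ctrl mice lay between 140.4 and 162 CPM. The clock score of this mouse was 2.61, against -1.28 to -0.46 in the other Ctrl mice. *Ccnd3* in the ABpIF/+ mouse BG31 was at 32.9 CPM, with the other ABpIF/+ mice between 20.0 and 23.5 CPM.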

How the results depend on the processing

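Over 693 values of the 9 genes under alternatives, 668 kept their direction and their side of the threshold, counting as unturned an uncalled value that stayed within 1 SE of 0. Of the 206 that belong to the 8 called changes, 193 were still called and 0 turned. The 206 include the looser thresholds, under which no call can be lost. Leaving out each of the 15 mice kept 117 of 120 calls, the exceptions being *Cdkn2a* in ABpIF/F vs Ctrl without malpa454, BG90 or BG38. Some of these 120 left out a mouse of the group not compared, which acts on a call only through the shared fit. The number of genes called changed by 1 under DESeq2, the edgeR 4 quasi-likelihood, either looser threshold and without malpa459 or BG30 (4 in ABpIF/+ vs Ctrl) and with only the groups compared or without malpa454, BG90 or BG38 (2 in ABpIF/F vs Ctrl), and by over 1.5 times under 2 settings. With BG3 as the only control it was 1 in ABpIF/+ vs Ctrl and 0 in ABpIF/F vs Ctrl, in which only 1 control mouse was compared, and *Cdkn2a* in ABpIF/+ vs Ctrl turned to -0.13. With the clock score as a covariate it was 0 in ABpIF/F vs Ctrl and 1 in ABpIF/+ vs ABpIF/F, and *Ccne2* in ABpIF/F vs Ctrl turned to 0.76, *Cdkn2c* there to -0.03, and *Ccne1* and *Ccne2* in ABpIF/+ vs ABpIF/F to -1.05 and -0.53, all uncalled. Scaling by library size alone moved the median log2 fold change of all genes with at least 1 CPM to -0.16 and -0.15 in the comparisons with ABpIF/+ first, and *Ccnd3* in ABpIF/+ vs ABpIF/F to -0.19. The causes were not tested.

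Without division by exon length the D-type cyclin shares moved, since the genes differ in length, to 81.0%, 21.8% and 49.3% for *Ccnd1* in Ctrl, ABpIF/+ and ABpIF/F livers, to 6.10% and 19.5% for *Ccnd2* and 12.9% and 31.2% for *Ccnd3* in Ctrl and ABpIF/F livers. No paired analysis was possible because the replicate numbers only follow the order of the samples and pair no mice. The second deposited table was not fitted, since the columns that could be matched held the same counts. At 0 to 9 counts of *Cdkn2a* per Ctrl mouse, depth limits the precision of its fold change.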
